A study of Mus musculus with 2 samples.

Results

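Long noncoding RNAs of 9 named genes were followed across the cell types of the mouse colonic lamina propria. The genes were the nuclear RNAs Malat1 and Neat1, the snoRNA host genes Gas5, Snhg1, Snhg5, Snhg6 and Snhg12, and the RNAs of imprinted regions Kcnq1ot1 and Meg3. They were matched by gene symbol to the 31053 genes of the count matrices. Rows were found for 6 of them (Malat1, Neat1, Snhg6, Snhg12, Kcnq1ot1 and Meg3), and Gas5, Snhg1 and Snhg5 were not analysed here. The 3 unmatched genes have the type processed transcript in the GENCODE M21 annotation, of which 10 of 790 genes (1.27%) had a row, against 5459 of 5854 lincRNA genes (93.3%) and 2816 of 2959 antisense genes (95.2%).

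The study compared male C57BL/6 mice aged 6 to 8 weeks, kept free of specific pathogens, that were labelled wild type or deficient for lncly6c (1700016P04Rik). This gene had been removed with CRISPR-Cas9 in zygotes, and the stated purpose concerned its part in macrophage differentiation. Each group was 1 droplet single-cell library (10x 3′ chemistry, version V3) of colonic lamina propria cells. How many animals were pooled in each library is not given in the sources used here. Sample titles and genotype labels give the same genotype, but each file is named with the other genotype. The labels were followed here; if the file names were right, every direction below would be exchanged. Lncly6c had 0 UMIs in both libraries, so it could not check the labels. Among the cells kept, 3 UMIs would correspond to 0.132 and 0.0551 CPM (counts per 1000000 UMIs).

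The libraries held 3020 barcodes (wild-type-labelled) and 6133 barcodes (deficient-labelled), with medians of 4426.5 and 7539 unique molecular identifiers (UMIs) per barcode, and 7 barcode sequences occurred in both. More than 20% of UMIs were mitochondrial in 408 barcodes (13.5%) and 232 barcodes (3.78%). After filtering, 2610 and 5890 cells remained. Of these, 1850 and 4145 met the marker gate of their best-scoring class, with a second class score at most 0.7 of the best. Another 377 and 1120 met that gate but had a second score over 0.7 of the best, and were left out. Classes were named from RNA markers, so each name means a cell like that type; the ending "-like" is dropped after its first use. A level was given for the 13 classes with at least 50 cells over both libraries, and a ratio between libraries for the 10 classes with at least 50 cells in each. The leading genes of each of the 13 classes held at least 2 of its own markers, such as Chil3 and Ly6c2 in Ly6C-high monocyte-like cells, C1qa and Apoe in macrophage-like cells, and Dcn and Col3a1 in fibroblast-like cells.

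Malat1 is a nuclear RNA of splicing speckles whose stable end is not a normal poly(A) tail. Neat1 is made as a short form with a poly(A) tail and a long form that forms the core of paraspeckles, nuclear bodies that hold RNA-binding proteins. The Snhg genes carry small nucleolar RNAs in their introns, and their spliced transcripts start with a run of pyrimidines, as the mRNAs of ribosomal proteins do. Kcnq1ot1 and Meg3 are each transcribed from 1 parental copy of an imprinted region: Kcnq1ot1 acts on the genes around Kcnq1 and Cdkn1c, and Meg3 lies in the region of Dlk1 and Rtl1.

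The kit captures RNA through stretches of A, so the ends of Malat1 and Neat1 are shown first. All sequences are those of GENCODE M21 transcripts on GRCm38 (mm10), written 5′ to 3′ on the transcript strand. Malat1 lies at chr19:5795690-5802672, minus strand, and its transcript of 6983 bases holds 1 run of 10 or more A. That run of 12 A, in capitals, ends 298 bases before the annotated 3′ end, and the stretch shown spans chr19:5795958-5796029.
Malat1: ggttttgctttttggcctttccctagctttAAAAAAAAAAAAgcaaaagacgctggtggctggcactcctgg
Neat1 lies at chr19:5824708-5845478 on the same strand. Its long transcript has 20771 bases and its short one 3004, and neither holds such a run. The last 60 bases of the long form (chr19:5824708-5824767) end in an A-rich stretch, in capitals, and the last 60 bases of the short form (chr19:5842307-5842366) hold the poly(A) signal AATAAA, in capitals.
Neat1 long form: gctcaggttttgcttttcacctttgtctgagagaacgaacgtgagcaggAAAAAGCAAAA
Neat1 short form: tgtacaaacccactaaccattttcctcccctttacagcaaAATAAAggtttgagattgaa
The matrix has 1 row for the gene, so the forms of Neat1 could not be told apart. Kcnq1ot1 (chr7:143203458-143296549, minus strand) has a transcript of 93092 bases with 10 runs of 10 or more A. Over all 141767 annotated transcripts, 7.18% hold at least 1 such run.

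The start of the snoRNA host transcripts is shown because it is what the measured pair share. The genes are Snhg6 (chr1:9941959-9944118, minus strand, host of Snord87) and Snhg12 (chr4:132308623-132311024, plus strand, host of Snora16a, Snora44, Snora61 and Snord99). The 1 transcript used of each, Snhg6-203 and Snhg12-204, begins with the 7 pyrimidines shown in capitals. Starts of their other annotated transcripts were not compared, and the Snhg12 gene begins upstream of the start shown. The stretches span chr1:9944079-9944118 and chr4:132308677-132308716.
Snhg6: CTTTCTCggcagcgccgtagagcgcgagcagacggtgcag
Snhg12: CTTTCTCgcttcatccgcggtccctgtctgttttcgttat
The letters CTTTC occur on the transcript strand in the first 40 bases of 4.42% of 141704 annotated transcripts, and on either strand in 9.90%. These are not shares of transcripts that begin with such a run. Exons of Snhg6 overlap Mcmdc2 on the opposite strand (114 UMIs in all), and exons of Kcnq1ot1 overlap Kcnq1 (239 UMIs), so a small part of their counts could belong to these neighbours if strand was not used.

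Levels are the UMIs of a gene as a share of all UMIs of a class, in CPM. Each carries an exact 95% Poisson interval, and each ratio an exact 95% conditional binomial interval. These cover counting error only and leave out the spread between cells of a class, so real uncertainty is larger than they show. With 1 library per group there was no replicate and no test, and differences between mice could not be told apart from differences between genotypes. A difference was counted when it was over 1.5-fold, and a gene was measured in a class when it had at least 50 UMIs over both libraries. Malat1 and Neat1 were measured in all 10 classes with a ratio, Kcnq1ot1 in 8, Snhg6 and Snhg12 in 7 and Meg3 in 0.

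**Figure D1:**
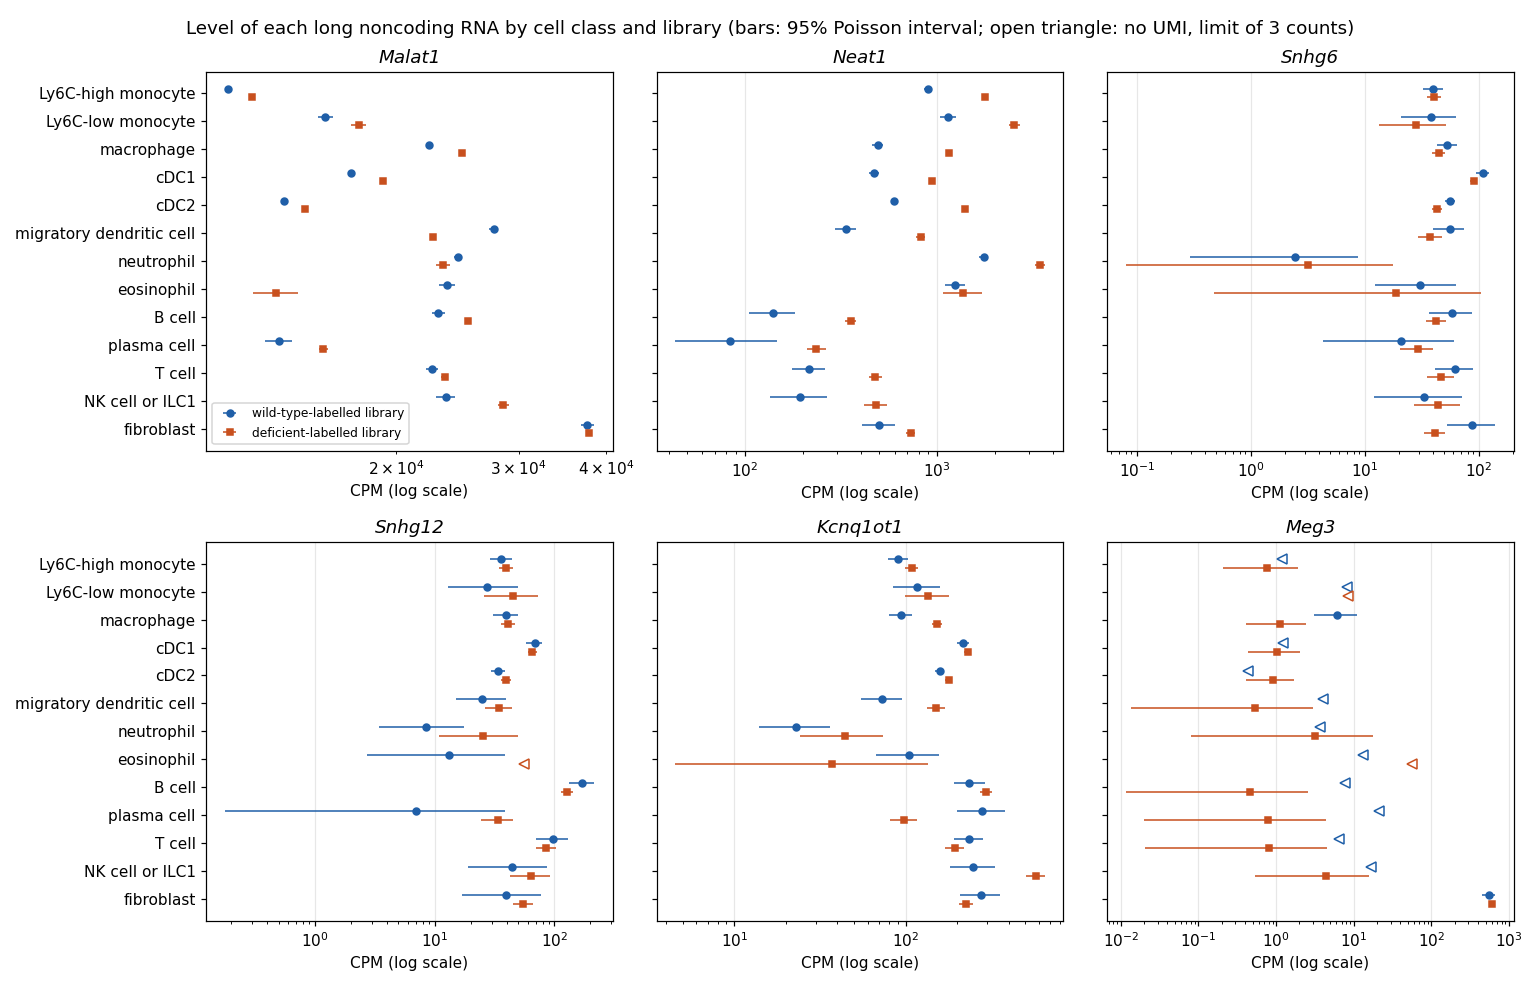
Level of 6 long noncoding RNAs in 13 cell classes. The horizontal axis of each panel is CPM on a log scale with its own range, circles are the wild-type-labelled and squares the deficient-labelled library, bars are 95% Poisson intervals and open triangles mark 3 counts where no UMI was found. Neat1 squares lie to the right of the circles in every class, and Meg3 stands high in fibroblasts (549 and 603 CPM).

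Malat1 accounted for 1.15% to 3.78% of all UMIs in a class of either library and was found in nearly every cell. Over both libraries it was highest in fibroblasts, at 37818 CPM (37565 to 38072), and lowest in Ly6C-high monocytes, at 12169 CPM (12091 to 12246), a 3.11-fold range. Fibroblasts stood at 37645 CPM in 18 wild-type-labelled cells and 37835 CPM in 259 deficient-labelled cells. In these pooled values NK cells or ILC1 (27112 CPM) and B cells (25016 CPM) followed. In the wild-type-labelled library alone, migratory dendritic cells came second (27620 CPM), ahead of neutrophils (24546 CPM), eosinophils (23719 CPM), NK cells or ILC1 (23577 CPM) and B cells (23036 CPM). In the pooled values macrophages (24248 CPM), neutrophils (24218 CPM) and migratory dendritic cells (24061 CPM) came after B cells. Neighbours among these 3 did not differ beyond counting error. The lower end of the pooled values held plasma cells (15543 CPM), cDC2 (14417 CPM) and Ly6C-high monocytes. Macrophages thus had about 2 times the Malat1 share of the monocytes. Cells of 1 class also spread widely: in wild-type-labelled macrophages Malat1 took 0.671% of a cell's UMIs at the 10th percentile, 1.80% at the median and 4.31% at the 90th percentile.

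Between libraries Malat1 was within 1.5-fold in 9 of the 10 classes. Of all measured genes, 14.8% were past that fold in either direction in Ly6C-high monocytes, 17.7% in Ly6C-low monocytes, 15.3% in macrophages, 13.3% in cDC1, 9.56% in cDC2, 25.4% in migratory dendritic cells, 22.0% in neutrophils, 24.7% in eosinophils, 22.2% in B cells and 21.0% in T cells. In Ly6C-high monocytes it stood at 11521 CPM and 12476 CPM (values in pairs are wild-type-labelled first), a log2 ratio, deficient over wild type throughout, of 0.11 (0.09 to 0.13). In macrophages it stood at 22325 and 24894 CPM, a log2 ratio of 0.16 (0.14 to 0.17). Both are small beside the middle 50% of all measured genes, which ran from -0.23 to 0.26 in these monocytes and from -0.22 to 0.26 in macrophages. The ratio was above 0 in 7 classes and below 0 in neutrophils (-0.07), migratory dendritic cells (-0.29, where the median of all genes was 0.14) and eosinophils. Eosinophils were the class past 1.5-fold: Malat1 stood at 23719 CPM (5406 UMIs, 183 cells) and 13476 CPM (721 UMIs, 60 cells), a log2 ratio of -0.82 (-0.93 to -0.70). In that class 14.9% of 993 measured genes were over 1.5-fold lower. With only eosinophils of at least 1000 UMIs the log2 ratio was -0.58, just inside the fold. The median eosinophil had 1156 and 857 UMIs. The order of the 10 classes by Malat1 was less alike between libraries (Spearman's rho 0.47) than that of the other members measured in several classes (0.78 to 0.93); the classes within a library share its depth and preparation.

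Malat1 also differed with the mitochondrial share of the barcode. In barcodes with 2 to 5% mitochondrial UMIs it stood at 15748 and 18121 CPM, and in those over 20%, which the filter removed, at 50991 CPM (408 barcodes) and 45570 CPM (232 barcodes). Wild-type-labelled Ly6C-high monocytes showed the same order within 1 class: 10764 CPM at 2 to 5% (174 cells), 16866 CPM at 5 to 10% (20 cells) and 32057 CPM at 10 to 20% (13 cells). Cells with few UMIs also had more of it, with 32433 and 33476 CPM at 1000 to 2000 UMIs and 15613 and 17303 CPM at 20000 UMIs and over. Which classes the shallow and the deep cells held differed, and the part of cell type in this difference was not tested.

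**Figure D2:**
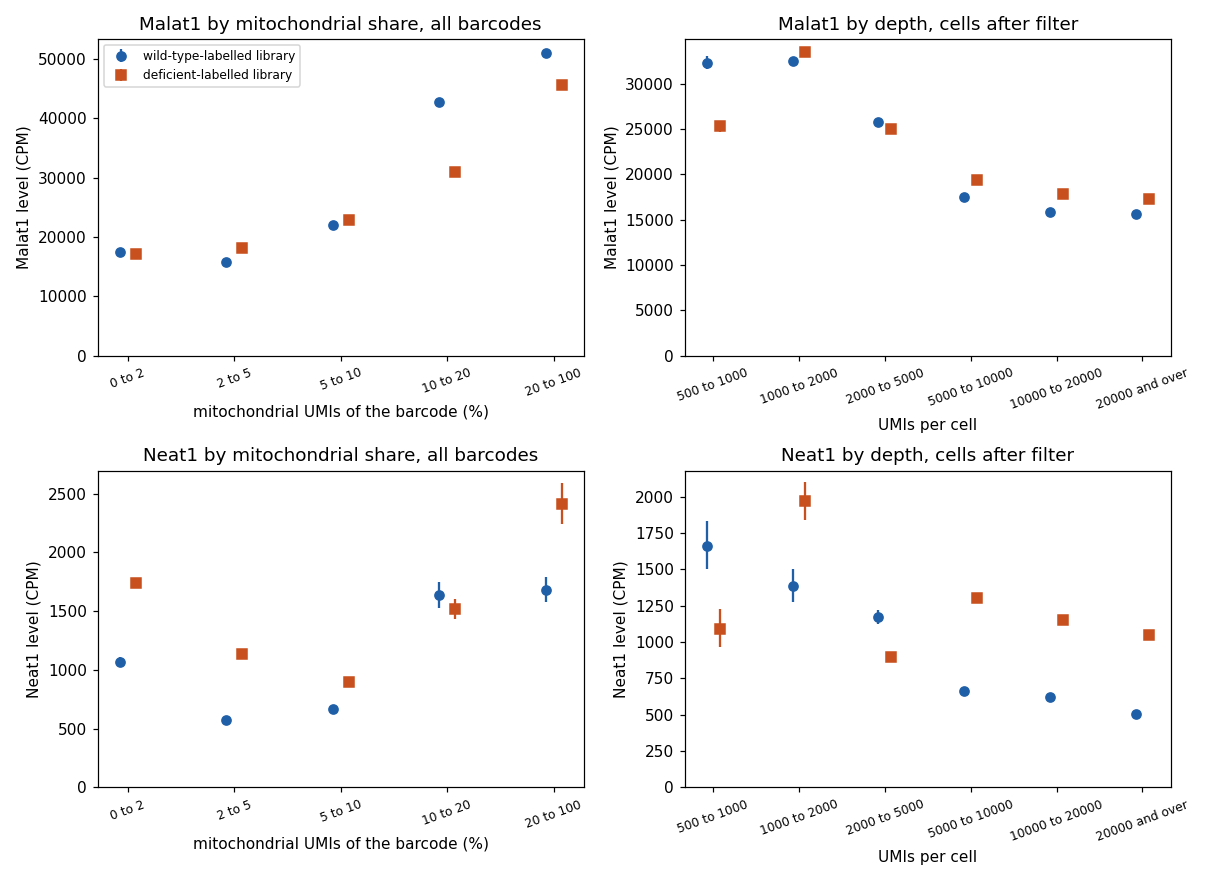
Malat1 (top) and Neat1 (bottom) level in CPM, by the share of mitochondrial UMIs in all barcodes (left, %) and by UMIs per cell after filtering (right). Circles are the wild-type-labelled and squares the deficient-labelled library, with 95% Poisson intervals; Malat1 reaches 50991 and 45570 CPM in barcodes over 20% mitochondrial UMIs, and Neat1 is higher in the deficient-labelled library at 5000 UMIs and over but not in every shallower bin.

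Neat1 was past 1.5-fold in more classes than any other member. It was over 1.5-fold higher in the deficient-labelled library in 9 of 10 classes, with a median log2 ratio of 1.15 over the 10 classes. In Ly6C-high monocytes it stood at 890 CPM (2236 UMIs, 264 cells) and 1776 CPM (9416 UMIs, 687 cells), a log2 ratio of 0.996 (0.93 to 1.06), or 1.99-fold. In that class 8.12% of 7403 measured genes were over 1.5-fold higher. In macrophages it stood at 491 CPM (879 UMIs, 203 cells) and 1150 CPM (6144 UMIs, 580 cells), a log2 ratio of 1.23 (1.13 to 1.33), or 2.35-fold, where 8.97% of 7744 genes were over 1.5-fold higher. The counting intervals of the libraries did not overlap in either class. These intervals cover neither the difference between mice nor that between preparations.

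The other myeloid classes went the same way. Ly6C-low monocytes, the patrolling kind, held 1136 and 2521 CPM (log2 ratio 1.15), in a class where 9.41% of measured genes were over 1.5-fold higher. In cDC1, the cross-presenting dendritic cells, it stood at 470 and 943 CPM (1.01; background 5.95%). In cDC2 it stood at 597 and 1399 CPM (1.23; background 5.69%). Migratory dendritic cells had the third lowest wild-type-labelled level among these 10 classes, and there Neat1 stood at 334 and 820 CPM (1.30, or 1.15 above the median of all genes in that class; background 18.7%). Neutrophils, the class richest in Neat1, held 1744 and 3412 CPM (0.97; background 12.0%).

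Lymphocytes held less Neat1 and had ratios of like size. In B cells it stood at 140 CPM (55 UMIs) and 354 CPM (774 UMIs), a log2 ratio of 1.34 (0.95 to 1.76), with a background of 13.7%. In T cells it stood at 215 and 477 CPM (1.15; background 13%). Eosinophils were the exception, with 1242 CPM (283 UMIs) and 1364 CPM (73 UMIs) and a log2 ratio of 0.14 (-0.26 to 0.51), where 9.77% of genes were over 1.5-fold higher. Classes with too few cells for a ratio are given as levels: 193 and 479 CPM in NK cells or ILC1, 496 and 727 CPM in fibroblasts, and 83.9 and 235 CPM in plasma cells (5 and 54 cells).

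**Figure D3:**
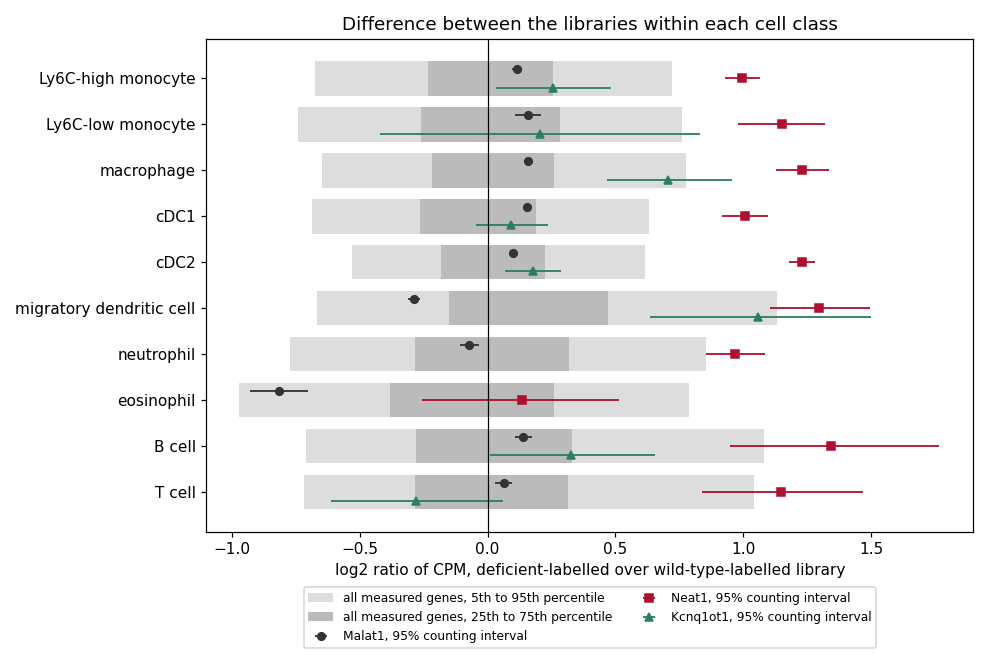
Difference between the libraries by cell class, as the log2 ratio of CPM with the deficient-labelled library on top. Circles, squares and triangles are Malat1, Neat1 and Kcnq1ot1 with 95% counting intervals, and grey bars give the 5th to 95th and 25th to 75th percentiles of all measured genes; Neat1 lies right of the 95th percentile in 9 of the 10 classes, and in eosinophils it lies at 0.14.

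Set beside all genes, 797 were measured in each of the 10 classes, and Neat1 ranked 3 by median log2 ratio. The genes above it were Igkc and Igha, which encode immunoglobulin chains of plasma cells (medians 4.24 and 3.97). In all, 3 of the 797 genes (0.376%) were over 1.5-fold higher in at least 9 classes, and 69 (8.66%) were higher in all 10. The summed level of 7 plasma cell markers went with it, being larger in the deficient-labelled cells of each of the 10 classes, for example 131 and 218 CPM in Ly6C-high monocytes and 138 and 218 CPM in macrophages. In those monocytes 2 of the 7 were at 0 in both libraries, and in macrophages none was. Markers of some other classes did the same. The 8 fibroblast markers summed to 12.7 and 40.5 CPM in Ly6C-high monocytes and 37.4 and 75.5 CPM in macrophages, and were higher in all 10 classes. The 10 T cell markers were higher in all 9 classes other than T cells, at 4.38 and 28.9 CPM in Ly6C-high monocytes and 76.4 and 129 CPM in macrophages. Markers of some classes were lower instead. The 7 goblet cell markers summed to 75.9 and 43.2 CPM in macrophages and 147 and 72.7 CPM in neutrophils, but 14.7 and 16.4 CPM in Ly6C-high monocytes. In these monocytes the 8 ILC2 markers summed to 103 and 47.1 CPM. The summed level of 3 rRNA-like loci was lower in the deficient-labelled library in all 10 classes. It stood at 15072 and 4630 CPM in Ly6C-high monocytes and 19055 and 7337 CPM in macrophages. In migratory dendritic cells it was 18810 and 4146 CPM, and in eosinophils 4388 and 3308 CPM. The part of these markers and loci in the Neat1 difference was not tested. The median Ly6C-high monocyte had 10074 and 7780 UMIs, and the median macrophage 7540 and 7602.

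The difference was also present in shares of cells. After each cell was thinned to 1000 UMIs, Neat1 was found in 54.2% (47.9 to 60.3%, exact binomial) of 264 and 73.3% (69.8 to 76.6%) of 686 Ly6C-high monocytes, and in 37.5% and 56.0% of macrophages. Unthinned shares were 96.2% and 98.4% in these monocytes and 83.3% and 90.9% in macrophages. The lowest thinned share among classes with a ratio was 11.9% and 23.7%, in B cells, at median depths of 4394 and 3506 UMIs. In the median cell Neat1 took 0.0798% and 0.149% of UMIs in Ly6C-high monocytes and 0.0397% and 0.0853% in macrophages.

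The size of the difference varied with depth. Ly6C-high monocytes of 5000 to 10000 UMIs held 871 CPM (82 cells) and 1812 CPM (475 cells), and those of 10000 to 20000 UMIs held 858 and 1829 CPM. Those of 2000 to 5000 UMIs held 1303 CPM (1114 to 1516, 38 cells) and 1470 CPM (1349 to 1600, 103 cells), whose intervals overlapped. Macrophages of 2000 to 5000 UMIs held 772 CPM (45 cells) and 1113 CPM (123 cells), which did not. Over all filtered cells together, Neat1 was lower in the deficient-labelled library at 500 to 1000 UMIs (1660 and 1093 CPM) and at 2000 to 5000 UMIs (1173 and 899 CPM), and higher in the other 4 bins. Over all barcodes with 10 to 20% mitochondrial UMIs the libraries stood at 1637 CPM (1531 to 1748) and 1519 CPM (1437 to 1604), whose intervals overlapped. Those bins mix cell classes in different proportions, and the part of that mixture was not tested. When each cell counted equally, the log2 ratio was 0.82 in Ly6C-high monocytes and 0.91 in macrophages, smaller than in the summed counts but over 1.5-fold.

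The order of cell classes by Neat1 was similar in both libraries (Spearman's rho 0.93 over 10 classes). Over both libraries neutrophils were highest, at 2207 CPM (2121 to 2295), and were followed by Ly6C-low monocytes (1818 CPM), Ly6C-high monocytes (1491 CPM), eosinophils (1265 CPM), cDC2 (1071 CPM), macrophages (985 CPM) and cDC1 (830 CPM). In the pooled values each of these 7 stood apart from the next beyond counting error, but the libraries hold the classes in different shares. In the wild-type-labelled library eosinophils (1242 CPM) overlapped Ly6C-low monocytes (1136 CPM) and macrophages (491 CPM) overlapped cDC1 (470 CPM), and in the deficient-labelled library eosinophils (1364 CPM) overlapped cDC2 (1399 CPM). In the pooled values fibroblasts (706 CPM) and migratory dendritic cells (679 CPM) did not stand apart, nor did T cells (406 CPM) and NK cells or ILC1 (397 CPM). B cells (321 CPM) and plasma cells (219 CPM) were lowest. Monocytes thus held more Neat1 and less Malat1 than macrophages. Among 7252 genes, those whose class levels were most like Neat1 were Nfe2l2, a regulator of the oxidative stress response (Pearson r 0.97 over 13 classes), Snx10 (0.96) and Sem1 (0.95). For Malat1 they were Sap30l (0.86), Sacm1l (0.81) and Pcmtd1 (0.78). These are descriptions over 13 classes that share 2 libraries.

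Within a class, cells with a larger share of Malat1 also held more Neat1. In wild-type-labelled Ly6C-high monocytes ranked by Malat1 share and cut in 3 equal sets, Neat1 stood at 612, 887 and 1191 CPM from the lowest set to the highest. In the deficient-labelled library it stood at 1304, 1720 and 2272 CPM. The highest wild-type-labelled set held less Neat1 (1191 against 1304 CPM) and more Malat1 (18517 against 7077 CPM) than the lowest deficient-labelled set. The part of the Malat1 share in the Neat1 difference was not tested. Macrophages gave 272, 465 and 727 CPM, and 885, 1130 and 1404 CPM. B cells gave 86.8, 125 and 206 CPM, and 299, 401 and 364 CPM, so the order did not hold in deficient-labelled B cells. Median mitochondrial shares of the sets ran from 2.61 to 2.85% and from 2.62 to 2.78% in Ly6C-high monocytes.

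**Figure D4:**
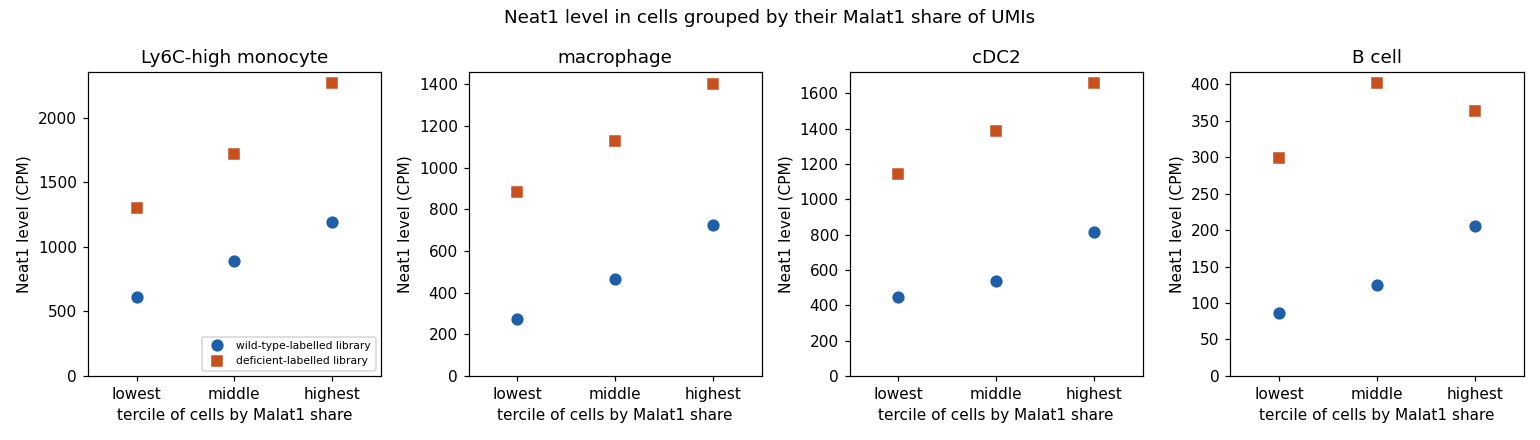
Neat1 level in CPM (vertical axis from 0) in 3 equal sets of cells ranked by the share of Malat1 among their UMIs (horizontal axis), in 4 classes. Circles are the wild-type-labelled and squares the deficient-labelled library; in Ly6C-high monocytes the circles run from 612 to 1191 CPM and the squares from 1304 to 2272 CPM.

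The listed protein partners of these RNAs gave the following counts, beside 14.8% and 15.3% of all measured genes past 1.5-fold either way in Ly6C-high monocytes and macrophages. Of 12 listed paraspeckle proteins, all measured, 0 were past 1.5-fold in Ly6C-high monocytes and 1 was in macrophages (Rbm14, log2 ratio 0.71, -0.03 to 1.53, from 18 and 88 UMIs). The list's median log2 ratios were 0.11 and 0.01, beside 0.01 and 0.02 over all measured genes. Listed proteins went both ways in Ly6C-high monocytes. Nono, a core paraspeckle protein, stood at 117 and 95.4 CPM (-0.29, -0.50 to -0.08). Pspc1 stood at 26.3 and 34.9 CPM (0.41, -0.004 to 0.84). Of 15 nuclear speckle and splicing factors, 0 were past 1.5-fold in both classes. In macrophages Srsf11 stood at 165 and 220 CPM (0.42) and Ddx5 at 1835 and 1521 CPM (-0.27).

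Among other long noncoding RNAs, of 25 listed, 18 had a row, and 8 and 7 were measured in Ly6C-high monocytes and macrophages. In each class 2 were over 1.5-fold higher and 0 lower, beside 8.12% and 8.97% higher over all genes. Lncpint, a p53-induced transcript, stood at 43.0 and 75.1 CPM in the monocytes (0.80) and 48.0 and 72.6 CPM in macrophages (0.60). Mirt1 stood at 7.56 CPM (19 UMIs) and 15.8 CPM (84 UMIs) in the monocytes (1.07). Tug1 stood at 68.1 and 64.4 CPM in macrophages (-0.08).

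As a list, genes of the immediate early and dissociation response, which tissue digestion can raise, were lower in these 2 classes but not in all. Of 17 listed and measured, 5 were over 1.5-fold lower in Ly6C-high monocytes and 4 in macrophages, with 0 higher, where 6.71% and 6.34% of all genes were over 1.5-fold lower. The list's median log2 ratio was -0.29 and -0.30. Egr1, an immediate early transcription factor, stood at 148 and 80.1 CPM in the monocytes (-0.88) and at 828 and 322 CPM in macrophages (-1.36). Fosb stood at 451 and 196 CPM in the monocytes (-1.20). Some listed genes went the other way within 1.5-fold. In the monocytes Ier3 stood at 1146 and 1409 CPM (0.30, 0.24 to 0.36) and Hsp90aa1 at 994 and 1188 CPM (0.26, 0.19 to 0.32). The list's summed level was higher in the deficient-labelled library in cDC2 (9965 and 10440 CPM) and eosinophils (15207 and 17887 CPM). The same held in fibroblasts (7349 and 8481 CPM) and plasma cells (4780 and 4931 CPM). The part of this response in the member differences was not tested.

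Snhg6 and Snhg12 showed no ratio past 1.5-fold in any of the 7 classes in which each was measured. In these classes 9.56% (cDC2) to 25.4% (migratory dendritic cells) of all measured genes were past it either way, so most genes were within it too. Snhg6 was highest in cDC1, at 108 CPM (267 UMIs) and 90.8 CPM (710 UMIs), 95.02 CPM over both libraries (89.2 to 101.2). T cells followed with 51.0 CPM, and from there down to eosinophils (28.4 CPM) and plasma cells (28.3 CPM) each class overlapped the next. Neutrophils held 3 Snhg6 UMIs in 411 cells, 2.63 CPM (0.54 to 7.69). The same class held the most Neat1. Eosinophils, of lower depth, held 28.4 CPM of Snhg6 (12.3 to 56.0), from only 8 UMIs. The log2 ratio of Snhg6 was above 0 in 1 of its 7 measured classes, with a median of -0.37. It was -0.26 (-0.46 to -0.05) in cDC1 and -0.37 (-0.57 to -0.17) in cDC2, and 0.03 (-0.32 to 0.38) in Ly6C-high monocytes. In migratory dendritic cells (42 and 70 UMIs) it was -0.56 (-1.13 to 0.03). After the median of all genes in that class was subtracted it was -0.70, past 1.5-fold on that scale.

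Snhg12 had its highest levels in lymphocytes. B cells held 170 CPM (67 UMIs) and 129 CPM (281 UMIs), 135 CPM over both (121 to 150), and T cells 96.9 and 85.4 CPM. Next came cDC1 with 66.3 CPM. Macrophages (40.7 CPM), Ly6C-high monocytes (38.6 CPM) and cDC2 (37.2 CPM) did not differ beyond counting error. Neutrophils (13.2 CPM, 15 UMIs) and eosinophils (10.7 CPM, 3 UMIs) were lowest. The log2 ratio was 0.14 (-0.23 to 0.51) in Ly6C-high monocytes and 0.05 (-0.34 to 0.46) in macrophages. The intervals of all 7 measured classes held 0, and the lowest ratio was that of B cells (-0.40, -0.79 to 0.0031). The pair whose shown transcripts share the CTTTCTC start thus peaked in different classes, cDC1 and B cells. The genes most like Snhg6 over the 13 classes were Glrx3 (0.96), Chchd3 (0.96) and Atp5g2 (0.95), and those most like Snhg12 were Rrn3, an RNA polymerase I factor (0.96), Asxl2 (0.95) and Tomm40 (0.94).

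Related genes are given beside the same 14.8% and 15.3% of all measured genes past 1.5-fold in Ly6C-high monocytes and macrophages. Of 18 mRNAs with a pyrimidine start, 0 were past 1.5-fold in both classes, with list medians of 0.15 and 0.19 and medians over all genes of 0.01 and 0.02. Of 14 other snoRNA host genes, 5 had a row and 3 were measured in each class, with 0 past 1.5-fold. Epb41l4aos stood at 60.1 and 50.7 CPM in Ly6C-high monocytes (-0.24). Of 14 factors of nonsense-mediated decay, the pathway that degrades many spliced snoRNA host RNAs, 0 were past 1.5-fold in the monocytes and 1 was in macrophages (Smg6, 35.2 and 23.2 CPM, -0.60). Of 15 genes of snoRNP and ribosome biogenesis, 13 and 14 were measured: 0 were past 1.5-fold in the monocytes, and in macrophages Bop1 was higher (10.0 and 19.7 CPM, 0.97) and Myc lower (29.6 and 17.4 CPM, -0.76).

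Over both libraries Kcnq1ot1 was highest in NK cells or ILC1, at 481 CPM (428 to 538). That level differed by library, at 248 CPM (181 to 331, 45 UMIs in 39 cells) and 574 CPM (507 to 648, 260 UMIs in 107 cells). In the wild-type-labelled library NK cells or ILC1 were not highest: fibroblasts stood at 275 CPM (208 to 357) and plasma cells at 280 CPM (200 to 381), with overlapping intervals. B cells held 236 and 296 CPM, and fibroblasts 225 CPM in the deficient-labelled library. In pooled values fibroblasts (229 CPM) and cDC1 (228 CPM) did not differ beyond counting error, and neutrophils were lowest with 29.0 CPM (33 UMIs). In plasma cells the libraries stood at 280 CPM (40 UMIs in 5 cells) and 97.7 CPM (124 UMIs in 54 cells). The genes most like it over the 13 classes were Psmf1, Thoc3 and Spast (0.97, 0.97 and 0.96).

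Among 8 classes with a measured ratio, Kcnq1ot1 was over 1.5-fold higher in the deficient-labelled library in 2 and lower in 0. These were macrophages, where 8.97% of all measured genes were over 1.5-fold higher, and migratory dendritic cells, where 18.7% were. The share of all measured genes over 1.5-fold lower was 6.71% in Ly6C-high monocytes, 8.31% in Ly6C-low monocytes, 6.34% in macrophages, 7.34% in cDC1, 3.87% in cDC2, 6.65% in migratory dendritic cells, 8.59% in B cells and 8.07% in T cells, with 9.97% in neutrophils, where it was not measured. In macrophages it stood at 93.7 CPM (168 UMIs) and 153 CPM (817 UMIs), a log2 ratio of 0.71 (0.47 to 0.95). It was inside 1.5-fold when each cell counted equally (0.45) or when cells with a second score over 0.7 of the best were kept (0.41). In migratory dendritic cells it stood at 72.8 CPM (55 UMIs) and 151 CPM (281 UMIs), a log2 ratio of 1.06 (0.64 to 1.501), or 0.91 above the median of all genes, and 0.53 when each cell counted equally. In Ly6C-high monocytes, by contrast, it stood at 90.8 and 108 CPM (0.26, 0.03 to 0.48), and in T cells at 235 and 193 CPM (-0.28, -0.61 to 0.06).

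In Ly6C-high monocytes and cDC1 its UMIs varied more between cells than those of Snhg6. In deficient-labelled Ly6C-high monocytes a cell with any Kcnq1ot1 UMI held 2.82 on average and up to 25. Snhg6, with 215 UMIs against 575, had 1.28 per such cell and at most 4. The variance of UMIs over the mean was 4.60 for Kcnq1ot1, 1.22 for Snhg6 and 1.102 for Snhg12. It was higher for Neat1 (8.97, 9416 UMIs) and Malat1 (37.6, 66158 UMIs), and no adjustment for level was made. In cDC1 the variance over the mean was 9.31 and 8.28 for Kcnq1ot1, beside 2.25 and 1.64 for Snhg6 and 9.08 and 14.9 for Neat1. In wild-type-labelled B cells that of Kcnq1ot1 was 3.45, below the 3.69 of Snhg12.

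Meg3 UMIs lay mostly in fibroblasts in these libraries. Fibroblasts held 549 CPM (112 UMIs, 18 cells) and 603 CPM (1241 UMIs, 259 cells), and took 84.2% (76.9 to 89.95%) of 133 and 90.8% (89.2 to 92.3%) of 1366 Meg3 UMIs in filtered cells. No other class with a level exceeded 3.15 CPM over both libraries. Smaller classes had too few cells for a level, among them endothelial cells (11 cells) and smooth muscle cells or pericytes (5 cells). After thinning, Meg3 was found in 38.9% of 18 and 44.7% of 257 fibroblasts at median depths of 10811 and 7643 UMIs, and in 0 of 84 and 0 of 540 B cells at 4394 and 3506 UMIs, where the upper bounds were 4.30% and 0.681%; these limit cells with a UMI at that depth, not cells expressing the gene. Ly6C-low monocytes had 0 UMIs in both libraries, for which 3 counts correspond to 8.18 and 8.43 CPM. Wild-type-labelled macrophages held 11 Meg3 UMIs, found in 0.493% of 203 cells, which is 1 cell. The fibroblast classes differed in size, so over all filtered cells Meg3 stood at 5.84 and 25.1 CPM while its level within fibroblasts was alike.

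Some other listed genes of imprinted regions, named after their values were seen, had levels in this class. In fibroblasts, over both libraries, Sgce stood at 99.5 CPM, Grb10, an imprinted adaptor of growth factor receptors, at 56.6 CPM and Peg3 at 35.8 CPM. Other listed imprinted genes had higher levels elsewhere: Cd81 stood at 104 CPM in fibroblasts and 511 CPM in macrophages, and Tssc4 at 25.2 CPM in fibroblasts and 86.0 CPM in cDC1. Cdkn1c, a cell cycle inhibitor in the region of Kcnq1ot1, stood at 40.2 CPM there and 4.22 CPM in Ly6C-high monocytes. Mirg, which lies in the region of Meg3, had 21 UMIs in fibroblasts and 2 in the other 12 classes, while Dlk1 had 1 UMI and Rtl1 0 over the 13 classes. The snoRNA host gene Snhg18 stood at 264 CPM in fibroblasts and at most 4.65 CPM in the other classes with a level. Dnm3os, a host of microRNAs, stood at 77.4 CPM in fibroblasts. The genes most like Meg3 were Sparcl1, Eln and Ctgf (r of 0.999 each), a likeness that rests on the fibroblast class alone. Of 21 listed imprinted genes, 4 and 5 were measured in Ly6C-high monocytes and macrophages: 2 were over 1.5-fold higher and 1 lower in the monocytes, and 0 higher and 1 lower in macrophages. Over all measured genes 8.12% were higher and 6.71% lower in the monocytes, and 8.97% and 6.34% in macrophages. Cd81, a membrane protein encoded beside the region of Kcnq1ot1, stood at 12.3 and 20.6 CPM in the monocytes (0.74) and at 529 and 506 CPM in macrophages (-0.07).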

How the data were processed

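The deposited values were whole-number UMI counts per gene and barcode, 1 matrix per library, 1 row per gene. Per the submitters' processing notes, Cell Ranger was used with mm10 and STAR 2.5.1b. Per the file headers, the matrices came from software version 3.0.2. The annotation and strand setting are not given in the sources used here. Barcodes with under 500 UMIs, under 200 genes or over 20% mitochondrial UMIs were left out. A cell entered its best-scoring class of 23 if it had at least 5 UMIs from at least 3 distinct markers of that class and the second score was at most 0.7 of the best; otherwise it was left out, which stands in for doublet removal. In all, 90 and 260 assigned cells lay within 0.05 of that ratio, with 76 and 241 just outside it. Gate thresholds were set after the data were seen.

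Counts were summed per class and library and divided by the class total (CPM). Intervals were exact Poisson, Clopper-Pearson and conditional binomial, at 95%. edgeR and other count models were not run, since each group is 1 library. Named genes were the members, the 3 genes most correlated with each over 13 classes (log2 of CPM plus 10, genes with at least 500 UMIs), and per list up to 2 genes each way with at least 100 UMIs; Mirg, Dlk1, Rtl1, Sgce, Grb10, Peg3, Cdkn1c, Snhg18 and Dnm3os in fibroblasts were chosen after their values were seen. The members and lists were chosen with earlier results of these data known. The ratio and gate steps were tested on simulated data. Alternatives varied the filters, gate, denominator and averaging. The scripts ran in Python 3.11.15 with scipy 1.17.1, numpy 2.4.6, matplotlib 3.10.9 and pandas 2.3.3.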

Additional observations from a re-analysis of the deposited data

Results flagged for a closer look

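The Malat1 log2 ratio went opposite ways in different classes: -0.82 in eosinophils and 0.16 in Ly6C-low monocytes, with counting intervals on opposite sides of 0; the difference between the classes was not tested. Barcodes over the mitochondrial limit, which entered no class level or main ratio, held more of both nuclear RNAs than the filtered cells. Malat1 stood at 50991 CPM (wild-type-labelled) and 45570 CPM (deficient-labelled), and Neat1 at 1684 and 2413 CPM. These barcodes had medians of 1099 and 977.5 UMIs, against 6205 and 7849 in the filtered cells. The part of depth and cell type in this difference was not tested.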

How the results depend on the processing

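Over 42 log2 ratios and 13 alternatives, 490 of 546 values moved by less than the counting interval, 56 moved by more, and 11 had another sign than the main value. For Malat1 in Ly6C-high monocytes (0.11) the log2 ratio was 0.15 at a limit of 10% mitochondrial UMIs and 0.14 with a doubled marker threshold. It was 0.022 when each cell counted equally and 0.078 with cells of a high second score kept. For Malat1 in macrophages (0.16) it was 0.19 at the 10% limit and 0.10 with no such limit. Without mitochondrial, ribosomal protein and rRNA-like genes it was 0.13. It was 0.14 without the 5% of cells with the most UMIs and 0.12 with cells of a high second score kept. With the second class score at most 0.5 of the best it was 0.22. For Neat1 it was 0.82 in Ly6C-high monocytes and 0.91 in macrophages when each cell counted equally. Over all classes and alternatives Neat1 ran from -0.06, in eosinophils, to 1.504, in migratory dendritic cells; in the other 9 classes it stayed at or above 0.79. Keeping cells of a high second score, the 0.5 score limit and totals without Malat1 were chosen after seeing the data. No paired analysis was possible because each group is 1 library. Alternatives for Gas5 were not run, since it was not analysed here. Snhg6, Snhg12 and Kcnq1ot1 had too few UMIs for a ratio in neutrophils and eosinophils.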
